A study of Mus musculus with 4 samples.

Results

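The transcripts of 9 RNA-binding proteins and partners that repress translation were followed through a Cpeb4 RNA immunoprecipitation: Pum2, Fmr1, Fxr1, Fxr2, Ago2, Tnrc6a, Eif4enif1, Celf1 and Tia1. They were chosen by gene symbol from a list of repressors, each had 1 probe set, and they are 9 of the 25206 probe sets on the arrays. All 9 were among the 13911 genes tested, which were the named genes whose mean log2 value over the 4 arrays reached 3.844. The cells were Ter119+ erythroblasts (immature red cells) taken with magnetic beads from mouse fetal liver at embryonic day E14.5. No strain, genotype or treatment was given. There were 3 groups of RNA: 2 biological replicates of the immunoprecipitate (IP) with an antibody against Cpeb4, a control precipitate with rabbit IgG (1 array), and total input RNA (1 array). All values are deposited log2 expression values, so a difference of 1 is 2-fold. With 1 array for each control, a difference has no replicate on the control side, and nothing in the labels says whether a control came from the same livers as either IP replicate.

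Cpeb4 belongs to a family of proteins that bind short U-rich elements in the 3′ ends of mRNAs and set the length of the poly(A) tail and thereby translation. The 9 proteins act on the same step from other sides. Pumilio proteins, of which Pum2 is one, bind mRNA 3′ ends and bring in deadenylases. Fmr1, Fxr1 and Fxr2 are the fragile X proteins, which bind mRNAs and polysomes. Ago2 carries microRNAs to their targets, and Tnrc6a (GW182) links Argonaute to deadenylation. Eif4enif1 (4E-T) binds the cap-binding protein eIF4E and keeps it from the initiation complex. Celf1 binds GU-rich mRNAs and promotes their decay, and Tia1 holds mRNAs back from translation in stress granules. An RNA immunoprecipitate of a regulator can show whether mRNAs of other regulators come down with it, but the arrays measured RNA and not these proteins.

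Checks of the arrays and the cells are given here ahead of the members. The Cpeb4 transcript had values of 10.90 and 10.93 in the IP, 10.42 in IgG and 10.39 in input. Of 10 listed erythroblast markers 8 were measured, with input values between 6.33 and 12.20, so the labelled cell type carried its markers. Their summed level was 13.79 and 13.81 in the IP, 13.68 in IgG and 14.03 in input, and Klf1, Gata1 and Epb42 were 1.71, 1.40 and 1.23 lower in the IP than in input. The IgG array had a narrower spread of values than the others (SD 1.74, against 2.13 for input). The summed levels of neutrophil, hepatocyte, megakaryocyte and macrophage markers were higher on both IP arrays than on the control arrays. Single markers of the first and last of these lists were mixed, with 3 of 6 neutrophil and 3 of 6 macrophage markers above both controls, against 5 of 5 for hepatocytes and 4 of 4 for megakaryocytes. These counts take a difference of any size. Ttr was only 0.14 above IgG and 0.15 above input, and Gp1bb 0.08 above input, both named after their values were seen. C1qa, C1qb, Mrc1 and S100a9 were below IgG, by differences of -0.67, -0.13, -0.12 and -0.08, and these 4 and the 3 erythroblast markers were named after their values were seen. The summed level of 6 neutrophil markers was 11.23 and 11.22 in the IP, 10.70 in IgG and 9.32 in input on the log2 scale, and that of 5 hepatocyte markers was 8.96 and 9.20, 7.68 and 6.70 in the same order. The 4 measured of 5 megakaryocyte markers summed to 10.78 and 10.91 in the IP, 10.31 in IgG and 9.62 in input, and 6 macrophage markers to 8.54 and 8.79, 7.73 and 7.32. Endothelial markers (4) summed to 7.36 and 7.12, 6.35 and 6.22, with 2 of the 4 above both controls. Of these, Pecam1 had 6.94 and 6.54 in the IP, 5.15 in IgG and 4.98 in input. Cdh5, Kdr and Tek lay between 3.75 and 4.09 on every array. Of 4 lymphocyte markers 3 were measured and 0 reached the level for testing. No detection calls were given, so none of these markers can be placed at 0. The IP and IgG arrays measured precipitated RNA, so marker levels there do not give the number of cells of a type. In input, fewer cells of a type and less RNA per cell cannot be told apart. The part of these cells in the results below was not tested.

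Most of the repressor mRNAs stood above IgG in the IP, while their differences from input were small and went both ways. Against IgG, 8 of the 9 rose and 0 fell, by 0.30 to 1.80 on the log2 scale, and the median over the 9 was 1.05. Tnrc6a and Ago2, the smallest of these rises, turned to -0.33 and -0.035 when the 4 arrays were quantile normalized again. Pum2, Fmr1, Celf1 and Tia1 exceeded IgG by 2-fold or more on each IP array. After that normalization 5 of the 9 rose and 2 fell against IgG, 1 was at least 2-fold higher on both IP arrays, and the median was 0.40. Of all 13911 tested genes 4288 then rose, 4344 fell and 1781 were at least 2-fold higher, with a median of 0.03. Against input, Pum2 and Fmr1 rose, Fxr2, Celf1 and Eif4enif1 fell, and Fxr1, Ago2, Tnrc6a and Tia1 did not pass. Of the 9, 0 were 2-fold above input on both IP arrays and 0 were 2-fold below, where 4.04% and 5.18% of tested genes were.

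These counts have to be read against all tested genes, since rises over IgG were common. A gene passed at a Benjamini-Hochberg adjusted p below 0.05 in a limma fit with 1 common spread per level of expression. By that test 39.0% of tested genes were higher than IgG and 22.3% lower. At least 2-fold in both replicates, 18.6% were higher than IgG, against 4 of the 9 members. The members had fairly high values, and among the 9274 genes past a stricter filter (60th percentile), which all 9 members passed, 55.8% were higher than IgG by the test and 27.0% by the 2-fold rule. The median difference from IgG was 0.08 over all tested genes and 0.47 over those 9274. Against input, where 2 of the 9 members rose and 3 fell, 14.7% of tested genes were higher and 22.3% lower by the test. The test takes its spread from the 2 IP replicates alone and assumes that each control array varies like them. With a spread for each gene (limma eBayes), Pum2, Fmr1, Fxr2, Celf1 and Tia1 still passed against IgG, and of the calls against input only that of Eif4enif1 remained. The IP arrays of Eif4enif1 were exactly tied, which pulls its eBayes spread towards 0, so its passing there does not make that call firmer. By that fit 4061 of the 13911 tested genes were higher than IgG. The eBayes adjusted p against IgG was 0.0755 for Fxr1, 0.058 for Ago2 and 0.108 for Tnrc6a, and against input 0.0861 for Pum2, 0.0886 for Fmr1, 0.155 for Fxr2 and 0.122 for Celf1.

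**Figure D1:**
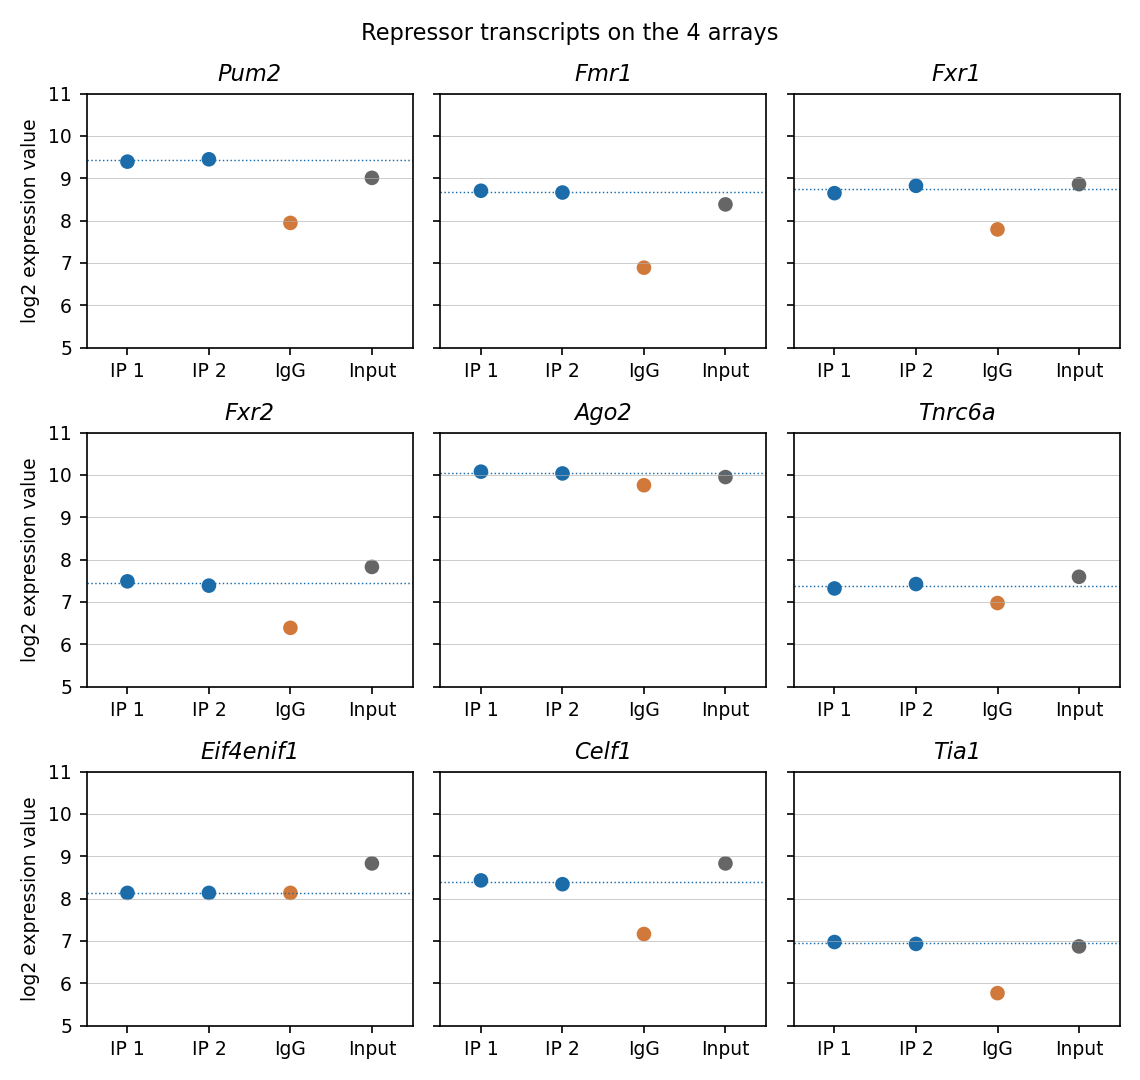
Log2 expression values (y axis) of the 9 repressor transcripts on each array (x axis: IP replicates 1 and 2, IgG, input), 1 point an array, with a dotted line at the IP mean. In 8 panels the IgG point lies below both IP points and the input point, and for Eif4enif1 the IgG and IP points coincide below input. Levels of different genes come from different probes and are not to be compared.

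Pum2 was the member with the largest rise over input. Its values were 9.39 and 9.45 in the IP replicates, 7.95 in IgG and 9.01 in input. Both IP arrays were above both controls, and IgG was the lowest array. Pum2 rose by 1.47 over IgG (2.78-fold, 95% interval 1.25 to 1.69) and by 0.41 over input (1.33-fold, interval 0.19 to 0.63, limma common-spread adjusted p = 0.00102), in both replicates. Among all tested genes these differences lay at percentiles 89.4 and 85.4. Both differences still passed once the arrays were quantile normalized again, at 0.82 and 0.59.

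The 3 fragile X family transcripts were all above IgG in both replicates, and against input they had different signs. Fmr1, whose product FMRP is missing in fragile X syndrome, had values of 8.70 and 8.66 in the IP, 6.89 in IgG and 8.38 in input. IgG was far below the other arrays, and both IP arrays were above input. Fmr1 rose by 1.80 over IgG (3.47-fold, interval 1.57 to 2.02), more than any other member, and by 0.30 over input (1.23-fold, interval 0.07 to 0.53, limma common-spread adjusted p = 0.0262). Both differences passed after quantile normalization again, at 1.08 and 0.48.

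Fxr1, the family member with a known role in muscle, had values of 8.65 and 8.82 in the IP, 7.79 in IgG and 8.86 in input. Here the IP arrays lay just under input, and their distance of 0.17 from each other was the widest among the 9 members. Fxr1 rose by 0.94 over IgG (interval 0.72 to 1.16), with 0.86 and 1.03 in the 2 replicates, so that 1 replicate missed 2-fold. Its difference of -0.13 from input did not pass (interval -0.35 to 0.09), and it was 0.030 after quantile normalization again. After that normalization its difference of 0.23 from IgG no longer passed (limma common-spread adjusted p = 0.0681).

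Fxr2 had values of 7.49 and 7.39 in the IP, 6.39 in IgG and 7.83 in input. The IP arrays lay between the controls and did not reach input. Fxr2 rose by 1.05 over IgG (2.07-fold, interval 0.79 to 1.30), and IP replicate 2, at 0.997, was just under 2-fold. The difference from IgG was 0.40 after quantile normalization again, and with eBayes, trend and robust it did not pass (limma adjusted p = 0.0663). Fxr2 fell by 0.39 against input (limma common-spread adjusted p = 0.00828), lower in both replicates, and this call was lost after quantile normalization again (-0.22, adjusted p = 0.184). The differences of Fmr1 from input were 0.66 and 0.72 above those of Fxr2 in IP replicates 1 and 2, and 0.53 and 0.32 above those of Fxr1. These gaps between genes are given as sizes and were not tested.

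The microRNA silencing pair showed the smallest rises over IgG. Ago2, the Argonaute protein that can cleave its target and that is needed to make the red cell microRNA miR-451, had values of 10.08 and 10.03 in the IP, 9.76 in IgG and 9.95 in input. All 4 arrays lay within 0.32 of each other, with the IP arrays highest. Ago2 rose by 0.30 over IgG (1.23-fold, interval 0.14 to 0.46, limma common-spread adjusted p = 0.000507), near the middle of all genes at percentile 58.7, and this turned to -0.035 after quantile normalization again. Its difference of 0.11 from input did not pass (interval -0.05 to 0.27), and was 0.25 and past the test after that normalization (adjusted p = 0.0121).

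Tnrc6a had values of 7.32 and 7.42 in the IP, 6.97 in IgG and 7.59 in input. Both IP arrays lay between the controls. Tnrc6a rose by 0.40 over IgG (1.32-fold, interval 0.14 to 0.65, limma common-spread adjusted p = 0.00434), but after quantile normalization again it fell by 0.33 (adjusted p = 0.0172), so its direction against IgG depended on the scaling. Its difference of -0.22 from input did not pass (interval -0.48 to 0.03).

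Eif4enif1 was the member whose IP and IgG values were the same. Its value was 8.13 on both IP arrays and on the IgG array, equal within 1e-09, and 8.83 in input. The probe summary can give such exact ties, which 465 of the tested genes (3.34%) showed on the same 3 arrays, and the difference of 0.00 (interval -0.23 to 0.23) is therefore not a precise one. Against input Eif4enif1 fell by 0.70 (1.62-fold lower, interval -0.92 to -0.47, limma common-spread adjusted p = 1.37e-08), the lowest of the 9 and at percentile 12.4 of tested genes. It also fell against input after quantile normalization again (-0.55), where it fell against IgG as well (-0.68).

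Celf1 and Tia1, which bind GU-rich and U-rich elements, were both at least 2-fold over IgG in both replicates. Celf1 had values of 8.43 and 8.34 in the IP, 7.16 in IgG and 8.83 in input. IgG was the lowest array and input the highest. Celf1 rose by 1.22 over IgG (2.33-fold, interval 0.99 to 1.45) and fell by 0.45 against input (interval -0.67 to -0.22, limma common-spread adjusted p = 0.000467). Both calls held after quantile normalization again, at 0.48 and -0.30, but neither passed with eBayes, trend and robust.

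Tia1 had values of 6.97 and 6.93 in the IP, 5.77 in IgG and 6.87 in input. The IP arrays and input were close together and IgG stood below them. Tia1 rose by 1.18 over IgG (2.27-fold, interval 0.84 to 1.53), and its difference of 0.08 from input did not pass (interval -0.26 to 0.43). With the arrays quantile normalized again these differences were 0.74, still past the test, and 0.22.

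**Figure D2:**
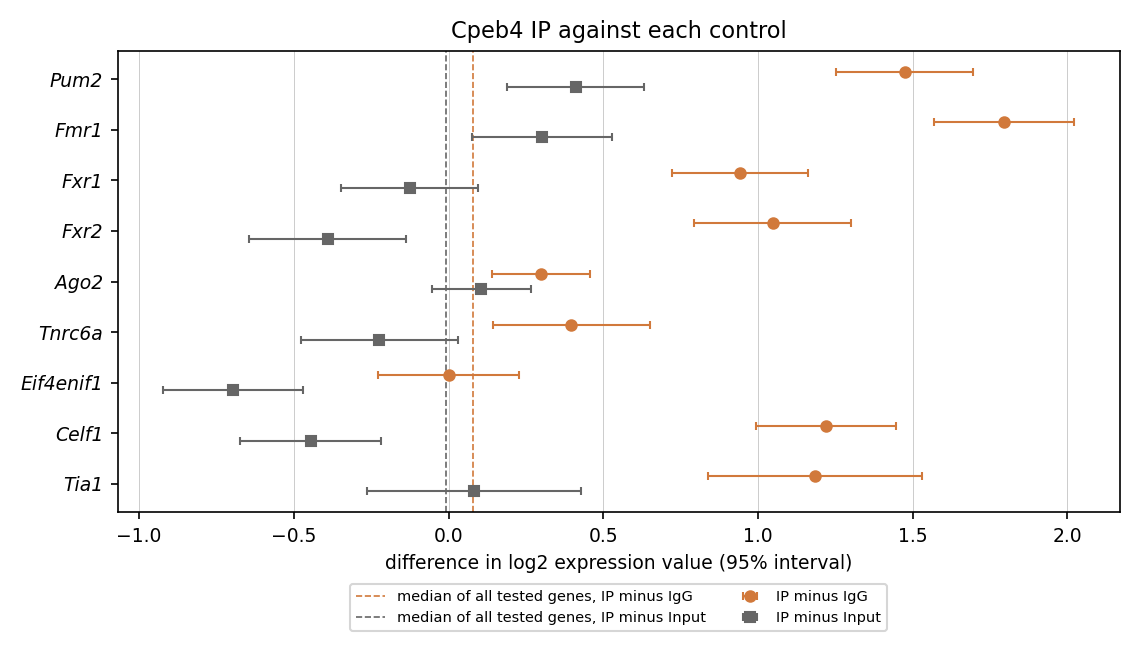
Difference in log2 expression value (x axis) between the Cpeb4 IP (mean of 2 replicates) and IgG (circles) or input (squares) for the 9 members (y axis), with 95% intervals from the common IP spread and dashed lines at the median of all 13911 tested genes. The differences from IgG run from 0.00 to 1.80 and those from input from -0.70 to 0.41. Values are as deposited, and the signs of Ago2 and Tnrc6a against IgG and of Fxr1 against input turn after quantile normalization again.

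The order of the members against one control was not their order against the other, and the differences share the IP arrays. Pum2 and Fmr1 rose against both controls, as 10.9% of tested genes did. Fxr2 and Celf1 rose against IgG and fell against input, as 10.8% of tested genes did. The IP mean of Celf1 lay 73.2% of the way from its IgG value to its input value, that of Fxr2 72.8%, that of Tnrc6a 64.0% and that of Fxr1 88.2%. For Pum2, Fmr1, Ago2 and Tia1 it lay beyond input.

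The IgG array differed from input more than the IP did for 8 of the members. IgG was below input for all 9, by 0.19 (Ago2) to 1.67 (Celf1), as for 54.7% of tested genes, and for Ago2, Tnrc6a and Eif4enif1 the sign turned after quantile normalization again (0.29, 0.27 and 0.13). Pum2, Fmr1, Fxr1, Fxr2, Celf1 and Tia1 were at least 2-fold lower in IgG than in input, where 23.9% of tested genes were. After that normalization 0 of the 9 and 1936 of all 13911 tested genes were. The median of all tested genes moved to -0.02, against -0.15 as deposited. Relative to the deposited median, the members lay between -0.05 (Ago2) and -1.52 (Celf1). IgG and input were 1 array each, so this comparison has no test. How far the narrower range of the IgG array sets the members' differences from IgG was not tested.

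**Figure D3:**
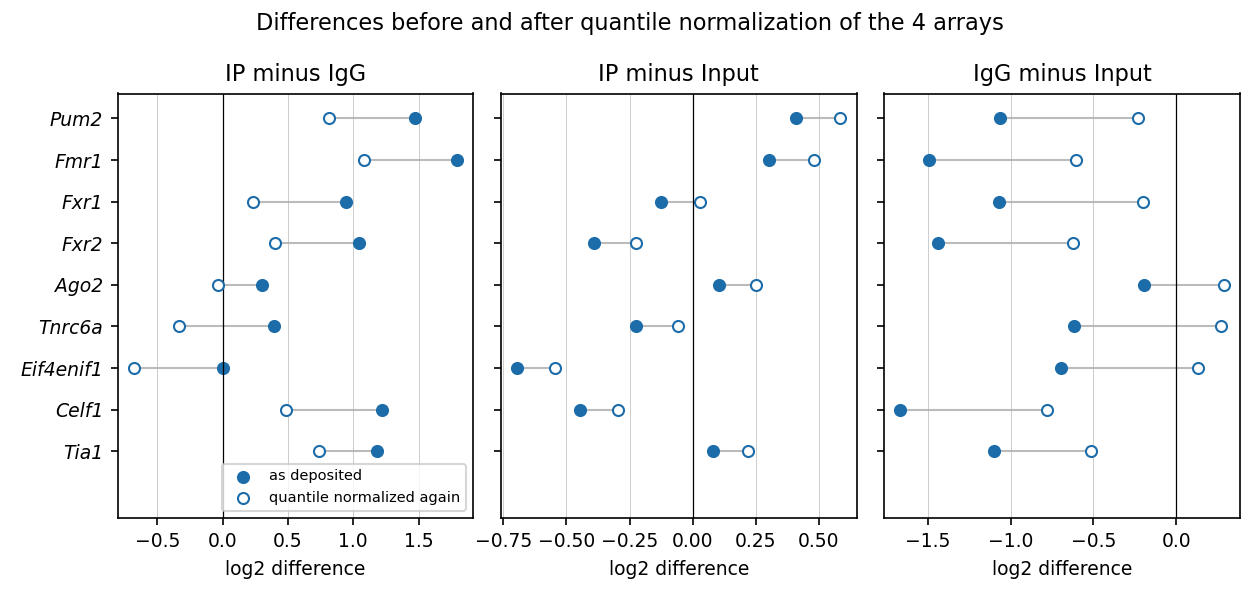
Differences in log2 expression value (x axes) of the 9 members (y axis) for IP minus IgG, IP minus input and IgG minus input, as deposited (filled) and after quantile normalization of the 4 arrays again (open). In the 2 IP panels every difference from IgG is lower after normalization and every difference from input is higher, with Pum2, Fmr1 and Tia1 above 0 in both under both scalings.

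Close paralogs of the members had differences of other sizes and, for some, of the other sign. Ago1, another Argonaute, had values of 6.64 and 6.69 in the IP, 5.27 in IgG and 5.59 in input. Both IP arrays were well above both controls. Ago1 rose by 1.40 over IgG (interval 1.01 to 1.79) and by 1.08 over input (interval 0.69 to 1.47), each at least 2-fold in both replicates, where Ago2 rose by 0.30 over IgG and differed by 0.11 from input. At least 2-fold over both controls in both replicates was reached by 2.49% of tested genes. After quantile normalization again Ago1 was 1.23 and 1.03 higher. Ago3 passed against neither control (0.38 over IgG and 0.07 over input, the first -0.080 after that normalization), and Ago4 was below the level needed for testing.

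Tnrc6b and Tnrc6c, the other GW182 proteins, had IP values at or near their IgG values. Tnrc6b was at 8.74 on both IP arrays and IgG, exactly tied like Eif4enif1, and at 9.06 in input, against which it fell by 0.32. Tnrc6c had 6.48 and 6.46 in the IP, 6.46 in IgG and 6.92 in input, and it fell by 0.45 against input. After quantile normalization again both fell against IgG (-0.55 and -0.61) and neither passed against input (-0.16 and -0.29).

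The closest relatives of Tia1 and Celf1 had other values as well. Tial1 (TIAR) had 8.63 and 8.62 in the IP, 8.62 in IgG and 8.50 in input, so all arrays lay close together, and it passed against neither control (0.01 and 0.12). Quantile normalized again, Tial1 fell by 0.58 against IgG and was 0.29 above input. Celf2, a relative of Celf1 that regulates splicing, had 5.73 and 5.86 in the IP, 5.22 in IgG and 4.27 in input. Input was its lowest array. Celf2 rose by 0.58 over IgG (limma common-spread adjusted p = 0.0204) and by 1.52 over input, where Celf1 fell by 0.45. Of the relatives with a named probe set, 6 were tested, and the gaps between relatives were not tested.

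**Figure D4:**
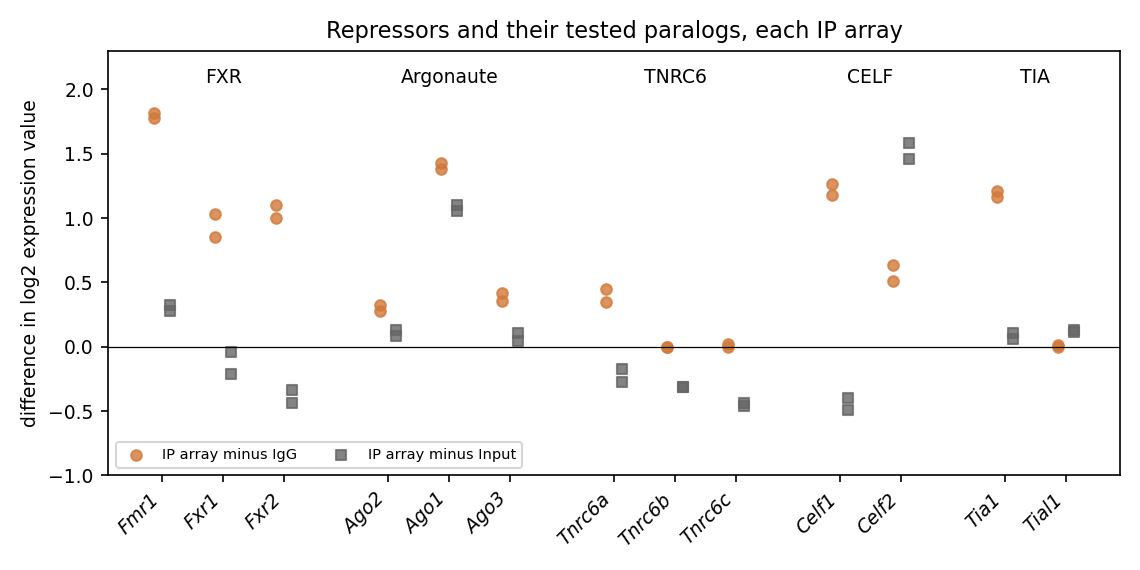
Difference in log2 expression value (y axis) of each IP array from IgG (circles) and from input (squares) for 5 gene families with more than 1 tested gene (x axis), the members first within each. Fmr1 is above Fxr1 and Fxr2 against both controls, Ago1 above Ago2, and Tia1 is above Tial1 against IgG. Values are as deposited, and after quantile normalization again Ago2, Ago3, Tnrc6a, Tnrc6b, Tnrc6c and Tial1 lie below 0 against IgG and Fxr1 above 0 against input.

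The wider set of repressors and their partners was taken from 8 lists of 97 genes, chosen with earlier results of these data known. Leaving out the 9 members, 78 were tested. Of these, 50 rose and 11 fell against IgG, and 25 rose and 18 fell against input. Of all tested genes 39.0% rose and 22.3% fell against IgG, and 14.7% rose and 22.3% fell against input. These shares are the background for each list below as deposited. The 18 of 78 that fell against input (23.1%) are near that background. Rises over IgG were more common among genes with higher values. Past the stricter filter (60th percentile), 55.8% of 9274 genes rose and 13.4% fell against IgG, and 19.4% rose and 31.6% fell against input. The lists were not matched to other genes by level. The median difference of the 78 was 0.63 from IgG and 0.05 from input, where all tested genes had 0.08 and -0.01. With the arrays quantile normalized again, the counts were 40 up and 21 down against IgG and 29 up and 13 down against input. Of all 13911 tested genes 4288 were then up and 4344 down against IgG, and 2414 up and 2621 down against input. These are the background for the list counts after that normalization. Against both controls 25 of the 78 rose and 4 fell, and 10.9% and 3.76% of all tested genes did so.

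The fragile X proteins and their partners rose over IgG in each tested case, where 39.0% of all tested genes and 55.8% of those past the stricter filter did. Of 7 tested genes in that list, the 3 family members included, 7 rose against IgG, and 4 rose and 1 fell against input. Quantile normalized again, 6 were up and 0 down against IgG. Nufip2, an FMRP-interacting RNA-binding protein, had 8.62 and 8.68 in the IP, 6.49 in IgG and 7.50 in input. Its IP arrays were the highest, and it rose by 2.16 over IgG and 1.15 over input. Caprin1, a stress granule protein that binds FMRP and G3bp1, rose by 1.73 over IgG and 0.45 over input. Nufip1 rose by 2.09 over IgG and differed by -0.41 from input, which did not pass (limma common-spread adjusted p = 0.0963).

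Most decapping and P-body genes rose over IgG, and they split against input. Of 12 tested, 9 rose and 1 fell against IgG (background 39.0% and 22.3%), and 4 rose and 4 fell against input (14.7% and 22.3%). Among genes past the stricter filter 55.8% rose and 13.4% fell against IgG. Lsm14a, a P-body protein that binds 4E-T, had 9.44 on both IP arrays, 7.10 in IgG and 8.85 in input, and rose by 2.34 over IgG and 0.60 over input. Upf1, the helicase of nonsense-mediated decay, fell by 0.52 against IgG (-1.23 after quantile normalization again) and by 1.04 against input. Quantile normalized again, the list had 8 genes up and 3 down against IgG.

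In the eIF4E list, which holds Eif4enif1, 4 of 10 rose and 2 fell against IgG, and 2 rose and 5 fell against input. The 4 of 10 that rose over IgG match the 39.0% of all tested genes. With the arrays quantile normalized again 3 of the 10 were up and 4 down, as were 4288 and 4344 of all 13911 tested genes. Eif4e, the cap-binding protein that Eif4enif1 binds, had 5.61 and 5.26 in the IP, 3.82 in IgG and 4.69 in input. Both IP arrays were above both controls. Eif4e rose by 1.62 over IgG and by 0.74 over input (limma common-spread adjusted p = 0.0023), while Eif4enif1 fell against input. Eif4ebp3, an eIF4E-binding repressor, fell by 0.89 against input, and its difference of -0.32 from IgG did not pass (adjusted p = 0.158). After quantile normalization again Eif4ebp3 fell by 0.82 against IgG.

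Of 13 tested genes of the microRNA pathway, 8 rose and 2 fell against IgG, with a median of 0.40. Once quantile normalized again, 4288 of all 13911 tested genes were up and 4344 down. The list then had 4 genes up and 5 down and a median of -0.05. As deposited, 2 of the 13 rose and 3 fell against input, which is near the 14.7% and 22.3% of all tested genes. Dgcr8, the partner of Drosha in microRNA processing, fell by 0.65 against IgG (-1.34 after that normalization) and by 0.52 against input. Ago1 was the highest of the list over input, and Xpo5, which exports microRNA precursors, was higher over IgG (1.48, named after its value was seen). In the CELF and muscleblind list 5 of 7 rose and 2 fell against IgG, and 4 rose and 1 fell against input. The 2 of 7 that fell against IgG (28.6%) are near the background of 22.3%. Mbnl3, a muscleblind splicing regulator, rose by 3.22 over IgG and 0.58 over input, and Celf6 fell by 0.97 against IgG and differed by 0.01 from input (-0.0069 after quantile normalization again).

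Of 8 tested TIA and stress granule genes, 5 rose and 1 fell against IgG, and 1 rose and 3 fell against input. The 1 of 8 that rose over input (12.5%) is near the background of 14.7%. Atxn2l, an ataxin relative found in stress granules, fell by 0.22 against IgG and by 0.29 against input, and after quantile normalization again it fell by 0.62 against IgG and did not pass against input (-0.18, limma common-spread adjusted p = 0.0931). The list median of 0.48 against IgG became -0.05 once the arrays were quantile normalized again, when 3 genes were up and 3 down. Of all 13911 tested genes 4288 were then up and 4344 down. Among 29 other repressors 20 rose and 2 fell against IgG, and 10 rose and 4 fell against input (background 39.0% and 22.3%, and 14.7% and 22.3%). Once quantile normalized again, 16 rose and 5 fell against IgG. Lin28b, which blocks maturation of let-7 microRNAs and is active in fetal blood cells, had 7.59 and 7.51 in the IP, 4.90 in IgG and 5.86 in input. Lin28b was highest on the IP arrays and rose by 2.65 over IgG and 1.69 over input. Msi1, the Musashi RNA-binding protein, fell by 1.00 against IgG and differed by -0.09 from input. Nanos1, a partner of Pumilio, fell by 0.44 against IgG (limma common-spread adjusted p = 0.0447, -0.88 after quantile normalization again), and against input it differed by 0.40, which did not pass (adjusted p = 0.114).

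The 3 tested genes whose values ran most like the mean of the 9 members over the 4 arrays were Klhl12, Dcaf17 and Mis18a. The Euclidean distance of their centred log2 values from the members' mean profile was 0.0128, 0.0195 and 0.0234. With 4 arrays and 13911 genes, so close a match describes these arrays only.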

How the data were processed

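RNA of 4 samples was hybridised to Affymetrix arrays as biotinylated cRNA, per the labels' protocols. The deposited values are log2 expression values made by the authors with RMA and the affy package, per the submitters' processing notes. Versions, settings, probe definition and genome build are not given in the sources used here. Probe set names are Entrez gene numbers; of 25206 probe sets 23185 had 1 symbol, 0 several and 2021 none in the annotation table, so 93 of the 97 listed genes were matched. Array medians were 4.15 and 4.17 on the IP arrays, 4.49 on IgG and 4.13 on input. The number of arrays limits the precision.

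Genes were tested at a mean at or above the 40th percentile of named genes (13911). Groups came from the sample titles. Differences were fitted over all 4 arrays with limma 3.58.1 in R 4.3.3 (lmFit, 3 groups, 1 residual degree of freedom). The IP replicates were exactly tied in 3032 tested genes, which pulls the eBayes spread towards 0. The test used 1 common spread per twentieth of mean expression (SD 0.0663 to 0.201), a normal distribution and Benjamini-Hochberg adjustment. The tied genes were part of that pool, so they lower the common spread and narrow its intervals too. By the common-spread test 5432 genes were higher than IgG, against 4061 with eBayes. The 95% intervals use the common spread and assume that each control array varies like the IP replicates, since no spread of the controls could be measured. The smallest called difference was 0.18 from IgG and 0.19 from input. Genes at least 2-fold from a control in both IP replicates were also counted. IgG and input were compared by size only.

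The members, lists and tests were chosen with earlier results of these data known. Named genes were the 9 members, their close paralogs with a named probe set, Cpeb4, the tested non-member highest and lowest over both controls in each list, and the 3 genes most like the members' mean profile. Tried as alternatives were a test of all named genes, a filter at the 60th percentile, a further quantile normalization, limma's eBayes with and without trend and robust, a stricter adjusted p of 0.01, fold thresholds of 1.5 and 4, leaving out each IP replicate, and pooling the controls into 1 group.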

Additional observations from a re-analysis of the deposited data

How the results depend on the processing

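No paired analysis was possible because the IgG and input groups hold 1 array each. Calls depended on the scaling of the arrays and on how the spread was estimated. After quantile normalization again, 5 of the 9 members were higher than IgG by the test and 2 lower (8 and 0 as deposited), 1 was at least 2-fold higher (4), 1 was lower than both controls (0) and 0 were 2-fold lower in IgG than in input (6). Of all 13911 tested genes 4288 were then higher than IgG, 4344 lower and 1781 at least 2-fold higher, and 1936 were 2-fold lower in IgG than in input. The members' median became 0.40 for IP minus IgG (1.05), 0.030 for IP minus input (-0.13) and -0.23 for IgG minus input (-1.07). Directions turned for Ago2 (-0.035), Tnrc6a (-0.33), Ago3 (-0.080), Tnrc6c (-0.61) and Tial1 (-0.58) against IgG, for Fxr1 (0.030) and Celf6 (-0.0069) against input, and, among the members, for Ago2 (0.29), Tnrc6a (0.27) and Eif4enif1 (0.13) in IgG minus input. The cause was not tested. With limma's eBayes, 5 members rose over IgG, namely Pum2, Fmr1, Fxr2, Celf1 and Tia1 (adjusted p = 0.0112 to 0.0401), 0 rose over input or over both controls and 1, Eif4enif1, fell against input. With trend and robust 3 members (Pum2, Fmr1 and Tia1) rose over IgG, 0 rose over input or both controls and 1, again Eif4enif1, fell against input. The exact tie of its IP arrays pulls its spread towards 0 in these fits, so its call against input is not made firmer by them. Of all 13911 tested genes 4061 rose over IgG with eBayes and 3187 with trend and robust. At an adjusted p below 0.01, 1 member, Pum2, and 1698 of all 13911 tested genes rose over input. With both controls as 1 group, limma called 0 members and 0 genes (0 members and 1112 genes at an unadjusted p under 0.05), and the spread in that fit includes the distance between IgG and input. A 4-fold threshold left 0 members above IgG and 0 lower in IgG than in input, where 574 and 748 of all 13911 tested genes were. A 1.5-fold threshold put 1 member, Eif4enif1, below input, and 1916 of all tested genes. Leaving out 1 IP replicate gave member medians of 1.03 to 1.10 against IgG and -0.21 to -0.039 against input. Testing all named genes turned the median of all genes to -0.076 for IP minus IgG (0.080) and 0.11 for IgG minus input (-0.15), since it adds dim genes. The number of tested genes lower than IgG was 3104, against 6143 with all named genes, 1247 with the 60th percentile filter and 1999 with trend and robust. The number higher than input was 2044, against 1306 and 1212 with eBayes without and with trend and robust, and the number lower 3107, against 1845 and 1632. With 1 array for each control, no alternative measures how a control varies.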
